A study of Mus musculus with 12 samples.

Results

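The genes described here encode the major histocompatibility complex (MHC) and the machinery that loads it with peptides. They were taken by symbol from the array's gene table: every symbol beginning with H2-, the mouse MHC, plus Cd74, Ciita, B2m, Tap1, Tap2, Tapbp, Psmb8, Psmb9 and Psmb10. The rule found 36 of the 19084 genes with a named probe. Of these, 12 belong to the class II pathway, 7 to class I assembly and peptide supply, and 16 are class I or class I-like H2 genes outside the classical chains. The remaining one, H2-Ke6, lies in the region but encodes an enzyme of steroid and fatty acid metabolism (Hsd17b8). The classical class I chains H2-K1 and H2-D1 were not analysed here, since no named probe carried their symbols.

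Liver RNA of male C57BL/6 mice had been measured on 12 single-colour arrays, 3 in each of 4 groups, after a fast of 12 hours in every group. PTFC mice ate the high-fat diet for 24 weeks and, after the first 6 weeks, had pure total flavonoids from Citrus (PTFC) placed in the stomach for 18 weeks, at a daily dose of 50 mg per kg. HFD24 and HFD16 mice ate the same diet for 24 and 16 weeks, and ND mice a normal diet for 24 weeks, all 3 of these groups with saline. The high-fat diet held 36.1% fat and 2% cholesterol, and the normal diet 12.3% fat. Mice were 31 to 33 weeks old in the PTFC and HFD24 groups and 23 to 25 weeks in HFD16, while the ND labels give 31 to 33 weeks for the first replicate and 30 to 32 weeks for the others. Age therefore differs wherever HFD16 is compared. The labels count 6 mice in each group and number 3 arrays, without saying that an array is 1 mouse, so p-values reflect no more than the scatter of these arrays, part of which may be technical.

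Class II molecules carry peptides from engulfed material and are made mainly by macrophages, dendritic cells and B cells. Their paired chains assemble with the invariant chain Cd74, which is later exchanged for peptide by H2-DM, an exchange that H2-DO restrains, and the coactivator Ciita switches the whole set on. Class I molecules are made by nearly all cells, hepatocytes included, and their chains pair with B2m before peptide is loaded. Peptides cut by the immunoproteasome (Psmb8, Psmb9, Psmb10) are moved by the Tap1 and Tap2 transporter and loaded with the help of Tapbp. Interferon gamma raises both pathways. Chromosome 17 holds 32 of the 36 genes, and B2m, Ciita and Psmb10 are among those elsewhere.

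Class II promoters are known for an X box, bound by the RFX factors, and a Y box, an inverted CCAAT bound by NF-Y, at a fixed distance, and Ciita acts through the proteins on both. RefSeq promoter windows (GRCm38.p6, 250 bases before to 50 after the start) were at hand for 27 of the 36 genes and 8 of the 12 class II genes. Cd74, Ciita, H2-Ab1, H2-Ea, H2-K2, H2-Q1, H2-Q5, H2-T24 and Tap2 had none. The X box core was searched as AACNGATG and the Y box as GATTGG, on both strands, letters chosen after the windows had been read. The X core stood in the windows of 4 class II genes and the Y box in those of all 8, against 2.32% and 16.1% of all 32851 windows. The Y box was not limited to class II, standing in 7 of 12 class I-like genes and 3 of 6 class I processing genes with a window, and an X core stood in 1 class I-like gene. An X core followed by a Y box 25 to 40 bases on, both on the gene's strand, stood in 6 windows of 32851 (0.0183%), and 4 of those 6 belong to H2-Eb1, H2-Eb2, H2-DMb1 and H2-DMb2. The spacing was 29 bases in both Eb genes and 30 in both DMb genes. These 4 stretches are shown because they share a layout. They are printed with X core and Y box in capitals, from 145 to 31 bases before the start, each on the plus strand (chr17:34305722-34305836, chr17:34325530-34325644, chr17:34153046-34153160 and chr17:34145104-34145218).
H2-Eb1: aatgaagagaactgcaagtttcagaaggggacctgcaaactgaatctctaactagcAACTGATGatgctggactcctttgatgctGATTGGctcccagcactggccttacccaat
H2-Eb2: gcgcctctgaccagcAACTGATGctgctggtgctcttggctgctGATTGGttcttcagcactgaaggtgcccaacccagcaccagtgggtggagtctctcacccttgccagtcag
H2-DMb1: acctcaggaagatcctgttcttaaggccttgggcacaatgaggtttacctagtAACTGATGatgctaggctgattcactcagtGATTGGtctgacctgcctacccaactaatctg
H2-DMb2: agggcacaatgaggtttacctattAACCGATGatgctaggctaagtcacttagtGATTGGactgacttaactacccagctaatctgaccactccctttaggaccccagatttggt

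H2-Aa, the class II chain with one of the largest differences described next, is shown over the same distance on the minus strand (chr17:34287854-34287968), where the Y box alone matched. H2-DMa, H2-Oa and H2-Ob also held the Y box alone.
H2-Aa: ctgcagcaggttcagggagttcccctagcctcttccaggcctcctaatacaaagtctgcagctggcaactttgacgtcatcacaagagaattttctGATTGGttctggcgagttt

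Tap1 and Psmb9 are read in opposite directions from starts with 225 bases between them. This whole stretch is shown in the direction of Tap1 (chr17:34187331-34187555), with a Y box on the strand of Psmb9 in capitals. B2m is shown as the gene of the class I pathway whose values stayed closest together (chr2:122147542-122147656, plus strand). Its capitals mark an interferon-stimulated response element core, searched as GAAANNGAA and found in 8.56% of all windows, and a Y box.
Tap1 and Psmb9: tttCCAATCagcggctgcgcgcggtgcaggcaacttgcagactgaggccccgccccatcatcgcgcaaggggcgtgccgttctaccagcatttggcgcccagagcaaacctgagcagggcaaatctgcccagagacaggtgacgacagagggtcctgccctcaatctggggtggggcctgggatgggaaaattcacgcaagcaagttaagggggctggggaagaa
B2m: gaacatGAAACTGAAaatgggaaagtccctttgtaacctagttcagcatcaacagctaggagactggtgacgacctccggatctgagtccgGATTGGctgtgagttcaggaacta

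**Figure D1:**
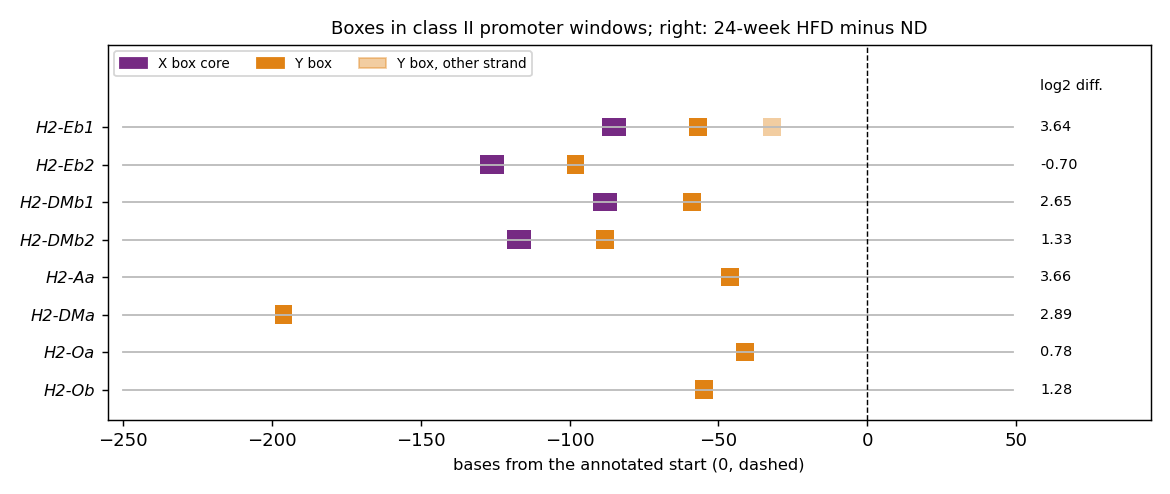
X box cores (purple) and Y boxes (orange, pale on the other strand) in the promoter windows of 8 class II genes, by distance in bases from the annotated start, with the HFD24 minus ND difference in log2 intensity at the right. Only matches to the exact letters searched are drawn, so a gene without a purple mark may hold an X box spelled otherwise. The first 4 genes share both boxes, with differences of 3.64, -0.70, 2.65 and 1.33 by the brightest probe; the second probe of H2-Eb2, the second of these genes, gave 1.72.

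After 24 weeks of high-fat diet the class II pathway stood far above the normal diet. Of its 12 genes, 9 rose, 0 fell and 3 did not pass (limma, Benjamini-Hochberg adjusted p under 0.05 over all 19084 genes), and the median difference was 2.49 on the log2 scale, against -0.06 over all genes. The class I processing genes rose in 6 of 7 cases, with a median of 1.57. Among the 16 other class I-like genes 3 rose and 1 fell, and their median was 0.06. Over all 36 genes 18 rose and 1 fell, where 9.97% of all genes tested rose and 8.28% fell. The 3 HFD24 arrays lay above all 3 ND arrays for 20 of the 36 genes, against 15.5% of all genes. In whole liver, more cells of a type and more RNA per cell cannot be told apart.

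The antigen-binding chains had some of the largest differences. H2-Aa, the alpha chain of the I-A molecule, had quantile normalized log2 intensities of 17.23, 17.21 and 16.53 in HFD24 livers, against 12.41, 13.82 and 13.75 in ND livers. The lowest HFD24 array thus lay well above the highest ND array, and the difference was 3.66 ± 0.57 (SE, n = 3 arrays each, limma adjusted p = 0.00145), or 12.7-fold. Its partner H2-Ab1 read 14.10, 13.95 and 12.77 in HFD24 and 9.28, 10.41 and 10.29 in ND, a difference of 3.61 ± 0.61 (limma adjusted p = 0.00211). H2-Eb1, the beta chain of the I-E molecule, read 16.46, 15.95 and 15.51 in HFD24 and 11.70, 12.96 and 12.34 in ND, and rose by 3.64 ± 0.76. A second, dimmer probe of H2-Eb1 gave 2.27 ± 0.41. C57BL/6 mice are known to lack a working H2-Ea, the alpha chain of I-E, which RefSeq lists as a transcribed pseudogene. H2-Ea read between 7.51 and 7.66 in HFD24 livers and between 7.44 and 8.26 in ND livers, overlapping, with a difference of -0.32 ± 0.20 (limma adjusted p = 0.279).

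H2-Eb2, a further beta chain gene, gave no single answer. Its brighter probe read 8.93, 10.57 and 10.01 in HFD24 and 10.87, 10.35 and 10.39 in ND, a difference of -0.70 ± 0.48 that did not pass (limma adjusted p = 0.329). Its dimmer probe, with a mean log2 intensity of 6.11 over the 12 arrays, gave 1.72 ± 0.43 and passed (limma adjusted p = 0.0148). The 2 probes disagree in sign, so no direction is given for the gene, although its promoter holds the same boxes as H2-Eb1.

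The invariant chain and the peptide exchange factors rose with the chains. Cd74 had log2 intensities of 15.64, 14.99 and 14.30 in HFD24 and 9.53, 11.54 and 10.74 in ND. This was the largest difference among the 36 genes by the brightest probe, 4.38 ± 0.74 (limma adjusted p = 0.00205) or 20.8-fold. The second brightest Cd74 probe gave 4.51 ± 0.64 and the dimmest 2.45 ± 0.49, and both passed. H2-DMa and H2-DMb1, the chains of the exchange factor H2-DM, rose by 2.89 ± 0.58 and 2.65 ± 0.50. H2-DMb1 read 13.93, 13.81 and 12.65 in HFD24 against 10.47, 11.08 and 10.90 in ND. The neighbouring copy H2-DMb2 rose by 1.33 ± 0.38 (limma adjusted p = 0.0276). Probes of such near-identical copies may also read each other's RNA, which was not tested.

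H2-DO, the restraint on H2-DM known from B cells and dendritic cells, gave smaller values. Its beta chain H2-Ob rose by 1.28 ± 0.36, with 7.54, 7.30 and 6.94 in HFD24 and 5.85, 5.91 and 6.20 in ND. H2-Ob belongs to the dimmest 25% of genes. The alpha chain H2-Oa gave 0.78 ± 0.34 and did not pass (limma adjusted p = 0.137), although its HFD24 arrays lay above its ND arrays. Ciita, the coactivator, read 9.88, 9.30 and 8.53 in HFD24 and 6.71, 7.28 and 6.72 in ND. That was a rise of 2.34 ± 0.54 or 5.05-fold (limma adjusted p = 0.0105), and without the first HFD24 array the adjusted p was 0.0521. The RFX factors that bind the X box, named here after their values were seen, gave smaller values: Rfxap rose by 0.69 ± 0.19, while Rfxank (0.34 ± 0.16) and Rfx5 (-0.03 ± 0.16) did not pass.

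**Figure D2:**
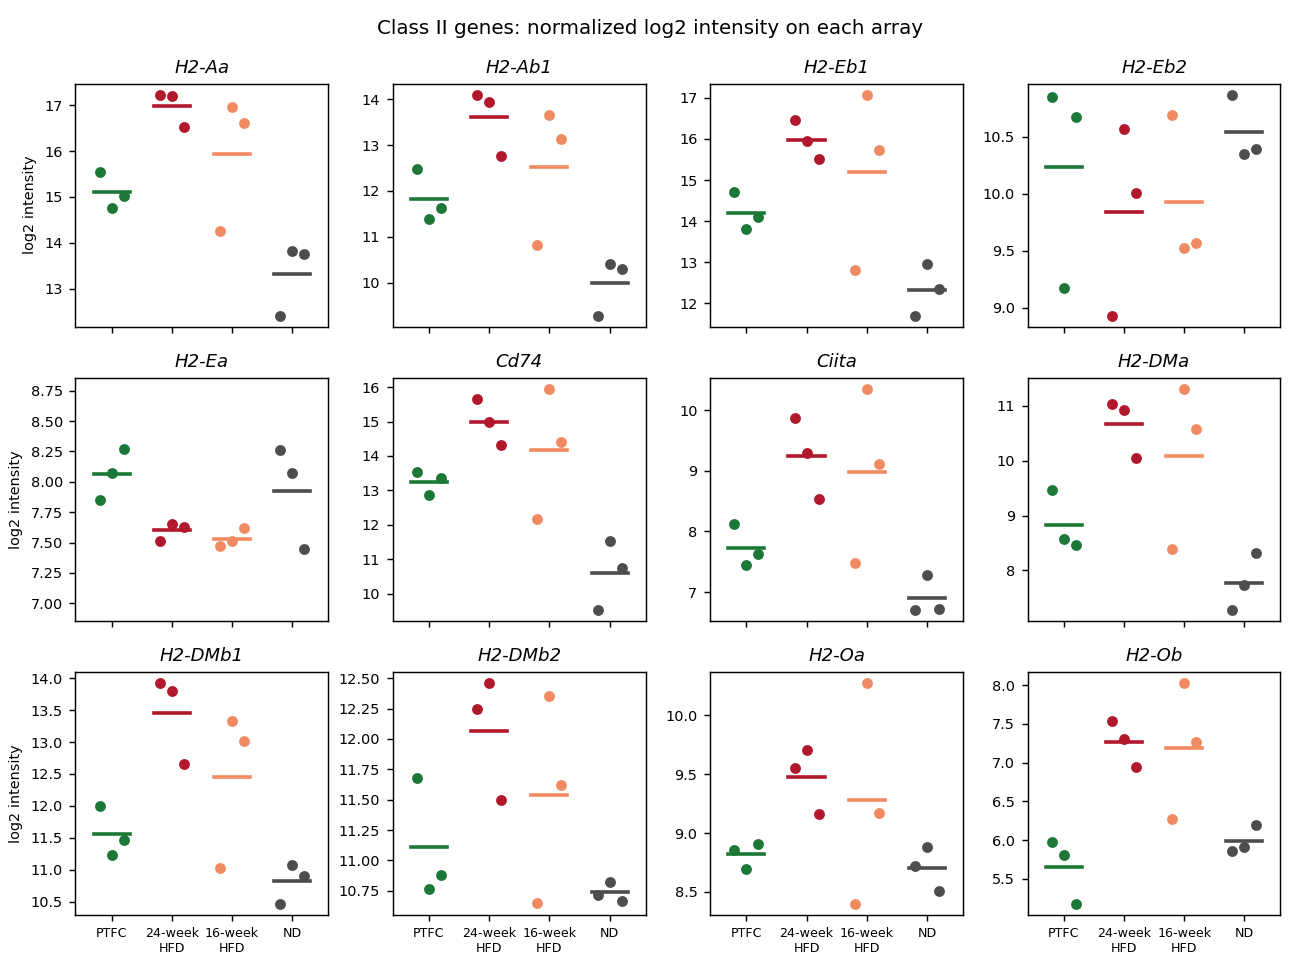
Normalized log2 intensity of the 12 class II genes on each of the 12 arrays (points, replicates 1 to 3 from left to right) with the mean of each group (line), in PTFC, 24-week HFD, 16-week HFD and ND livers; each panel has its own axis, which does not start at 0. In H2-Aa, H2-Ab1, H2-Eb1, Cd74, Ciita and H2-DMa all 3 HFD24 arrays lie above all 3 PTFC arrays and these above all 3 ND arrays, and the first 16-week array lies far below the other two.

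On the class I side, the inducible proteasome subunit Psmb9 rose most. It read 14.73, 14.46 and 13.85 in HFD24 and 11.82, 11.89 and 11.16 in ND, a rise of 2.72 ± 0.45 or 6.60-fold (limma adjusted p = 0.00177). Psmb8 and Psmb10 rose by 1.77 ± 0.41 and 1.57 ± 0.35. Their standing counterparts in the ordinary proteasome, Psmb5, Psmb6 and Psmb7, a list added after the data were seen, gave 0.32, -0.14 and 1.40, and none of the 3 passed. Psmb7 came near the threshold (limma adjusted p = 0.0560), with all its HFD24 arrays above all its ND arrays. The transporter chains Tap1 and Tap2 rose by 1.74 ± 0.33 and 1.49 ± 0.29. Tap1 read 13.88, 14.10 and 13.92 in HFD24 and 12.31, 12.34 and 12.03 in ND, so its HFD24 arrays lay within a narrow band far above ND. Tapbp, the tapasin that bridges transporter and class I chain, rose by 1.02 ± 0.24 (limma adjusted p = 0.0107).

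B2m, the light chain shared by all class I molecules, read 18.53, 18.21 and 18.33 in HFD24 and 18.27, 18.45 and 18.02 in ND. The groups overlapped and the difference was 0.11 ± 0.14 (limma adjusted p = 0.608). Its probe lay at the 99.9th percentile of brightness, and whether it was near the top of the scanner's range was not tested.

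Among the other class I-like genes, H2-M3, which presents formylated peptides of bacteria and mitochondria, rose by 1.45 ± 0.33, with 10.85, 10.47 and 10.10 in HFD24 and 8.90, 9.17 and 8.99 in ND. H2-T24 rose by 1.40 ± 0.36 and H2-M2 by 1.85 ± 0.58 (limma adjusted p = 0.0187 and 0.0427). H2-M5 was the only one of the 36 genes to fall, by 1.04 ± 0.25, with 8.39, 9.10 and 9.17 in HFD24 and 10.06, 9.75 and 9.97 in ND. H2-Q10, a class I molecule that the liver secretes, read 17.06, 17.13 and 17.17 in HFD24 and 17.33, 17.32 and 17.16 in ND, overlapping, with a difference of -0.15 ± 0.12. H2-K2, a transcribed pseudogene in RefSeq, and H2-Ke6 gave 0.10 and -0.12. The 7 class I-like genes in the dimmest 25% gave no call.

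**Figure D3:**
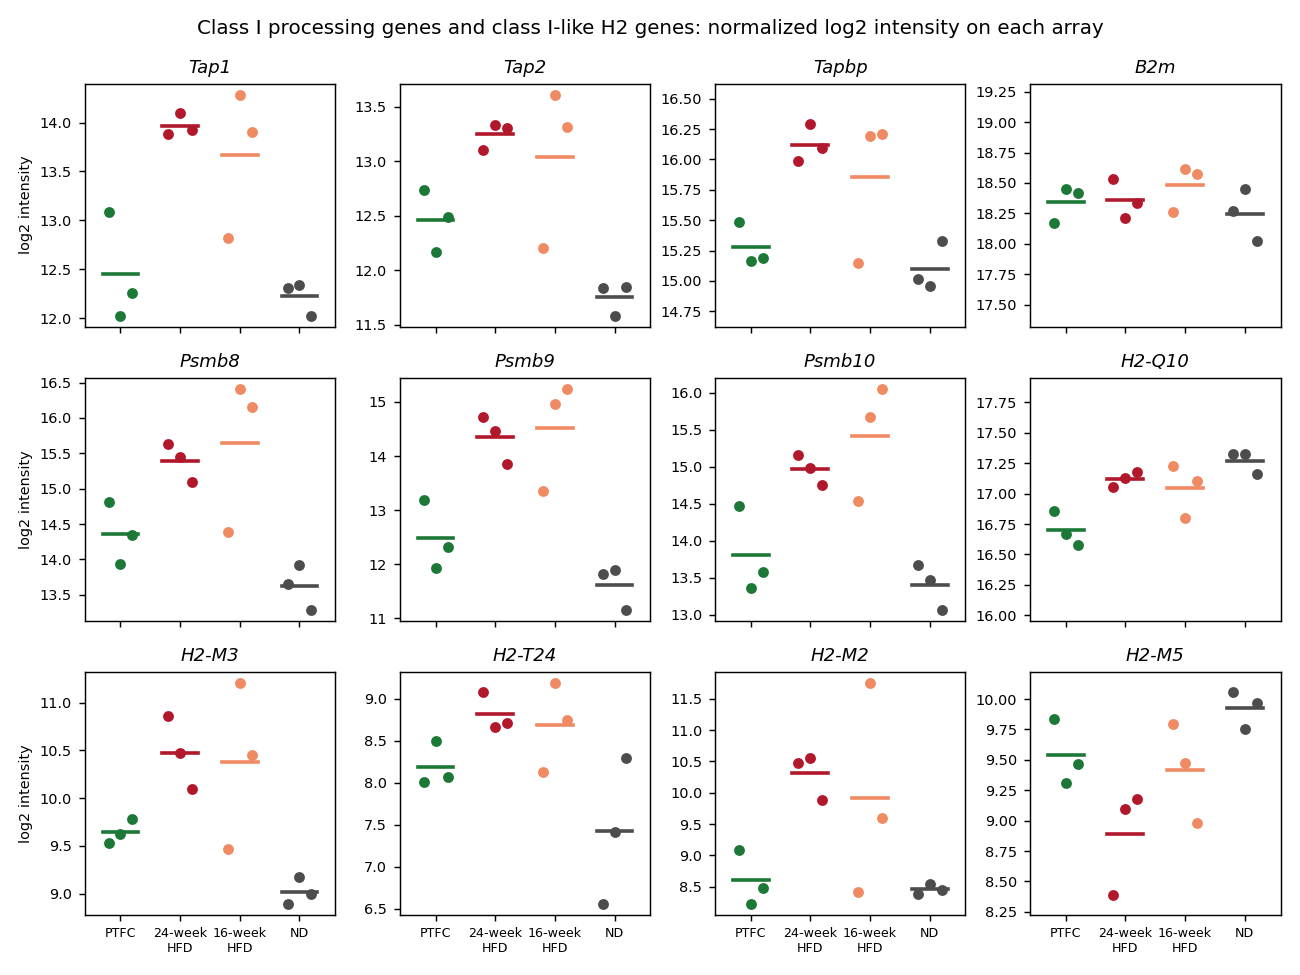
Normalized log2 intensity of the 7 class I processing genes and of 5 class I-like H2 genes on each array (points) with group means (lines), in PTFC, 24-week HFD, 16-week HFD and ND livers; each panel has its own axis, which does not start at 0. Tap1, Tap2, Tapbp, Psmb8, Psmb9 and Psmb10 lie higher on all 3 HFD24 arrays than on any ND array, while the groups overlap in B2m.

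The calls of H2-Aa, H2-Ab1, H2-Eb1, Cd74, H2-DMa, H2-DMb1, H2-M3 and the 6 class I processing genes held when any 1 of the 12 arrays was left out. Ciita, H2-DMb2, H2-Ob, H2-M2, H2-T24 and H2-M5 each lost theirs without the first HFD24 array, which left 13 calls in place of 19. Without the first ND array 14 calls were left, and without the second 15, H2-DMb2, H2-Ob, H2-M2 and H2-T24 being lost both times. H2-DMb2, H2-Ob and H2-M2 also missed the threshold without the second HFD24 array, H2-DMb2 and H2-M2 without the third ND array, and H2-M2 without 10 of the 12 arrays. On each array at least 99.9924% of the deposited non-zero intensities were whole multiples, to within 0.02 of a step, of a step of its own, 0.855 to 1.12 in HFD24 and 1.23 to 1.46 in ND, so that the steps of the 2 diets do not overlap and scaling and diet cannot be told apart. With this step as a covariate none of the 19 calls remained, the nearest being Psmb9 (limma adjusted p = 0.0508), while the class II median was 1.77 and the class I processing median 1.42.

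**Figure D4:**
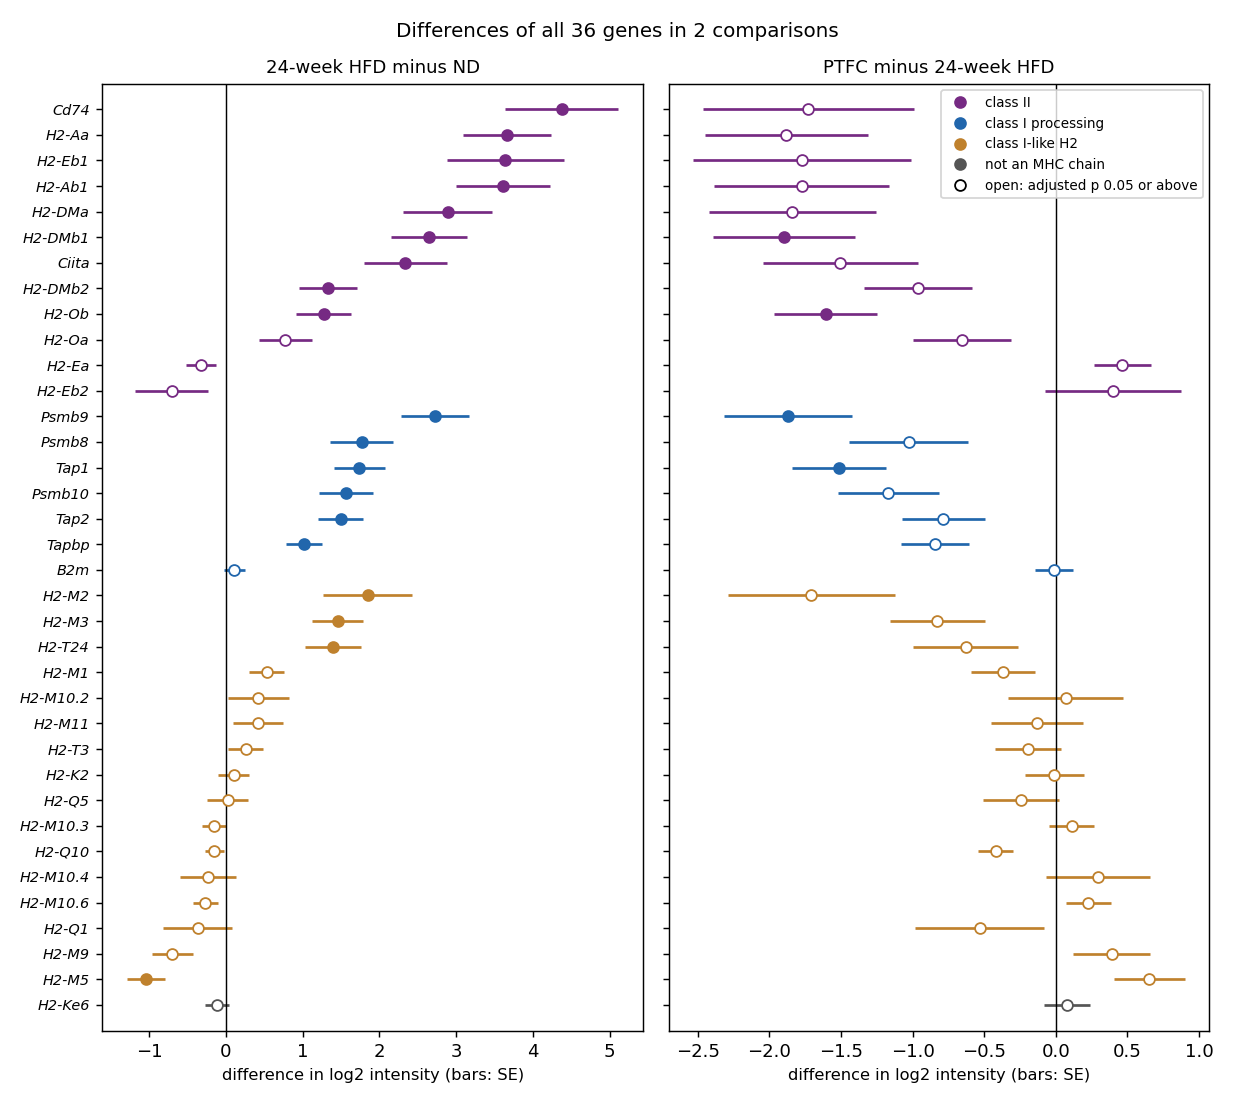
Difference in log2 intensity (points, bars one SE) of all 36 genes for 24-week HFD minus ND (left) and PTFC minus 24-week HFD (right), grouped as class II, class I processing, class I-like H2 genes and H2-Ke6; filled points passed at a limma adjusted p under 0.05. On the left 9 class II and 6 processing genes are filled to the right of 0; on the right 4 genes are filled, all to the left of 0.

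Livers of mice given PTFC on the high-fat diet read lower than HFD24 livers for most class II and class I processing genes, but few of the differences passed. Of the 36 genes 4 fell, 0 rose and 32 did not pass, where 3.04% of all genes tested fell and 2.96% rose. The 4 were H2-DMb1, H2-Ob, Psmb9 and Tap1. The median difference was -1.67 over the 12 class II genes, -1.03 over the 7 processing genes, -0.16 over the 16 class I-like genes and 0.01 over all genes. The PTFC arrays lay below all HFD24 arrays for 20 of the 36 genes, against 15.2% of all genes. They lay above all HFD24 arrays for 2 of the 36 genes, against 3043 of all 19084 genes.

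Psmb9 had 13.18, 11.92 and 12.32 in PTFC livers and 14.73, 14.46 and 13.85 in HFD24 livers. It fell by 1.87 ± 0.45, and PTFC livers thus held 3.65-fold less (limma adjusted p = 0.033). Tap1, which shares its promoter stretch, read 13.08, 12.03 and 12.26 in PTFC and 13.88, 14.10 and 13.92 in HFD24, a fall of 1.51 ± 0.33 (limma adjusted p = 0.0256). Both genes of the shared stretch were thus lower without overlap. H2-DMb1 read 12.00, 11.24 and 11.46 in PTFC and 13.93, 13.81 and 12.65 in HFD24 and fell by 1.90 ± 0.50 (limma adjusted p = 0.043). H2-Ob read 5.98, 5.81 and 5.18 in PTFC against 7.54, 7.30 and 6.94 in HFD24 and fell by 1.61 ± 0.36 (limma adjusted p = 0.0274).

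Of the other class II genes, 6 had differences between -1.50 and -1.88 that did not pass. H2-Aa read 15.54, 14.76 and 15.03 in PTFC and 17.23, 17.21 and 16.53 in HFD24, without overlap, at -1.88 ± 0.57 (limma adjusted p = 0.0673). H2-Ab1, H2-Eb1 and H2-DMa gave -1.77 ± 0.61, -1.77 ± 0.76 and -1.84 ± 0.58, with limma adjusted p = 0.097, 0.171 and 0.0758. Cd74 read 13.53, 12.86 and 13.36 in PTFC and 15.64, 14.99 and 14.30 in HFD24, at -1.73 ± 0.74 (limma adjusted p = 0.168). All of these arrays were separate between the groups, and none of these differences passed. Ciita gave -1.50 ± 0.54, with 8.13, 7.44 and 7.63 in PTFC and 9.88, 9.30 and 8.53 in HFD24 (limma adjusted p = 0.109). H2-DMb2 and H2-Oa gave -0.96 ± 0.38 and -0.66 ± 0.34, and H2-Ea and the brighter H2-Eb2 probe were on the other side of 0, at 0.46 ± 0.20 and 0.40 ± 0.48. For H2-Ea all PTFC arrays (7.85, 8.07 and 8.27) lay above all HFD24 arrays (7.51, 7.66 and 7.63). The dimmer H2-Eb2 probe gave -1.43 ± 0.43 and did not pass (limma adjusted p = 0.0636), so the probes again disagree in sign.

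Of the remaining processing genes, Tapbp (-0.84 ± 0.24, limma adjusted p = 0.0533) and Psmb10 (-1.17 ± 0.35, limma adjusted p = 0.0657) came near the threshold, Psmb8 and Tap2 gave -1.03 ± 0.41 and -0.79 ± 0.29, and B2m gave -0.01 ± 0.14. None of the 16 class I-like genes passed. H2-M2, H2-M3 and H2-T24, which had risen on the diet, gave -1.71, -0.83 and -0.63, and H2-M5, which had fallen, gave 0.65 ± 0.25. H2-Q10 had 16.85, 16.67 and 16.58 in PTFC and 17.06, 17.13 and 17.17 in HFD24, at -0.42 ± 0.12 (limma adjusted p = 0.0595).

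These 4 calls rest on single arrays. No gene of the 36 passed without the second PTFC array, without the third, or without the first or the second HFD24 array. Over all genes the calls fell as well, from 1145 to 354, 11, 39 and 233 in the same order. Leaving out the first HFD16 array, which is in neither group but enters the shared estimate of spread, raised the count to 17 of the 36 genes, leaving out the second raised it to 10, and leaving out the third ND array gave 6. With the replicate number as a block 1 passed. With medians in place of quantiles 10 genes passed, and with the scaling step, which spans 0.856 to 1.03 in PTFC and 0.855 to 1.12 in HFD24, 9 passed.

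At 16 weeks class II and class I processing genes already stood above the normal diet. Of the 36 genes 16 rose and 0 fell against ND, where 10.0% of all genes rose and 8.11% fell, and the group shares its ND arrays with the 24-week comparison. Class II rose in 8 of 12 cases with a median of 1.86, and class I processing in 6 of 7 with a median of 1.44. Cd74 rose by 3.57 ± 0.74, H2-Aa by 2.62 ± 0.57, Ciita by 2.08 ± 0.54 and Psmb9 by 2.89 ± 0.45 (limma adjusted p = 0.00767, 0.00941, 0.020 and 0.00208). The second brightest Cd74 probe gave 3.23 ± 0.64 and passed, while its dimmest gave 1.46 ± 0.49 and did not (limma adjusted p = 0.0555).

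The HFD16 arrays were far apart. H2-Aa read 14.25, 16.96 and 16.62, H2-Eb1 12.80, 17.08 and 15.72, and Cd74 12.16, 15.95 and 14.40 in HFD16 livers, so that on the first array they lay closest to ND and on the other two close to HFD24 or above it. Over the 12 class II genes the median distance from the ND mean was 0.38 on the first HFD16 array and 2.98 and 2.20 on the other two. Over the processing genes it was 0.59, 2.06 and 1.68. The summed intensity of 10 monocyte and macrophage markers followed the same order, 11854, 56459 and 33237, as did that of 12 T and NK cell markers, 5600, 16090 and 9509. Kupffer cell and B cell marker sums followed it too. The dendritic cell sum did not, at 14208, 7654 and 5822, nor did the plasma cell, endothelial, cholangiocyte and hepatocyte sums. On the first array the dendritic cell sum came mostly from 1 marker, Xcr1, which read 13.48, against 8.03 and 6.99 on the other arrays. The other dendritic cell markers, except Zbtb46 (9.45, 9.04 and 9.41), were lowest on the first array and highest on the second. Xcr1 and Zbtb46 are named here after their values were seen. Xbp1, named here after its values were seen, had a mean log2 intensity of 16.30, against 12.98 or less for the other plasma cell markers. The plasma cell sum was thus mainly that of Xbp1, and which cells carried this RNA was not tested. The part of these cell types in the differences was not tested. Without the first HFD16 array 19 of the 36 genes passed and the class II median was 2.59, while 8 passed without the second, 7 without the third and 7 without the first ND array, and none with the scaling step as a covariate.

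Between 24 and 16 weeks none of the 36 genes passed, where 0.0367% of all genes tested did (limma). An unadjusted limma p under 0.05 was reached by 0 of the 36 genes and by 1866 of all 19084 genes. The largest class II difference was that of H2-Ab1, 1.08 (limma adjusted p = 0.579). The class II median of 0.55 was -0.08 without the first HFD16 array and 1.06 without the second, so no order of the 2 feeding times is given.

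**Figure D5:**
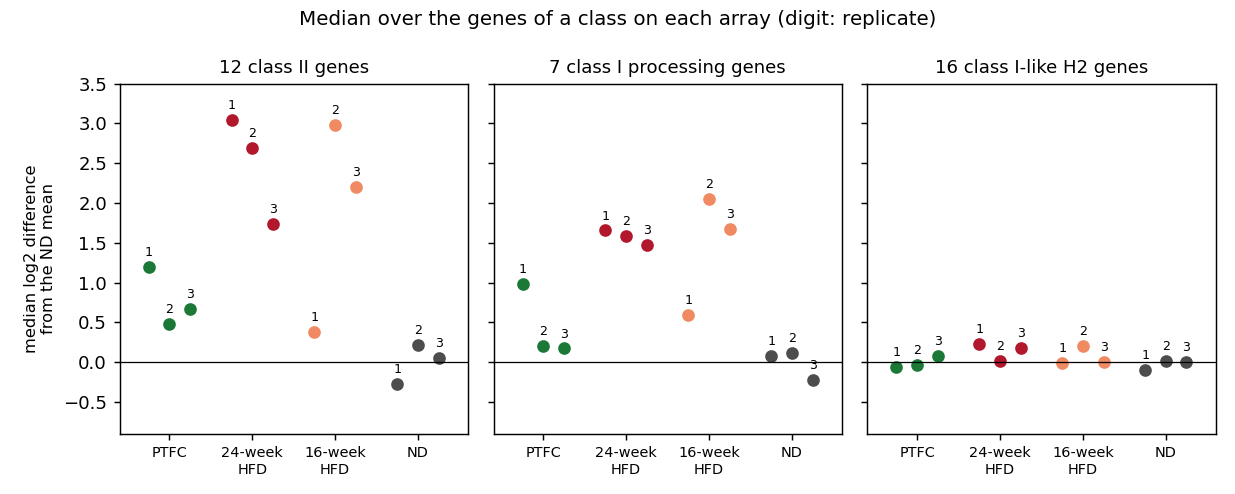
Median over the genes of each class of the log2 difference from the ND mean, 1 point per array with the replicate number above it, in PTFC, 24-week HFD, 16-week HFD and ND livers. The class II medians are 0.48 to 1.20 in PTFC, 1.73 to 3.04 in HFD24 and 0.38 to 2.98 in HFD16, and those of the 16 class I-like genes stay between -0.10 and 0.23 on all arrays.

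Set against the normal diet, PTFC livers read higher for H2-Aa, H2-Ab1 and H2-Eb1, but none of the 36 genes rose. Of the 36 genes 0 rose and 1 fell, where 1.04% of all genes rose and 1.29% fell. An unadjusted limma p under 0.05 was reached by 6 of the 36 genes and by 3267 of all 19084 genes. The PTFC arrays lay above all ND arrays for 11 genes, against 10.0% of all genes. Cd74 read 13.53, 12.86 and 13.36 in PTFC and 9.53, 11.54 and 10.74 in ND, at 2.65 ± 0.74 (limma adjusted p = 0.0773), and its second brightest probe gave 2.72 and passed (limma adjusted p = 0.0471), while its dimmest probe gave 0.77 and did not. H2-Aa, H2-Ab1 and H2-Eb1 gave 1.78 ± 0.57, 1.84 ± 0.61 and 1.87 ± 0.76, each with all PTFC arrays above all ND arrays. The class II median was 0.79 and the processing median 0.40, against -0.01 over all genes. The one gene that fell was H2-Q10, with 16.85, 16.67 and 16.58 in PTFC and 17.33, 17.32 and 17.16 in ND, by 0.57 ± 0.12 (limma adjusted p = 0.0307). That call was not made without the second PTFC array or the third, without the first ND array or the second, with medians in place of quantiles, with no trend in the prior variance or with the scaling step. Without the first HFD16 array 5 of the 36 genes passed, and without the second 2 did. Besides, H2-Q10 shares sequence with other class I genes whose RNA its probe may also read.

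Other genes of antigen presentation, 25 with a probe, rose in 12 cases and fell in 1 in HFD24 against ND, with a median of 0.53. Ctss, the cathepsin that cuts the invariant chain, read 14.74, 14.83 and 14.07 in HFD24 and 9.24, 10.75 and 11.93 in ND, a rise of 3.90 ± 0.69. Ifi30, which reduces disulfide bonds of antigens, rose by 2.26 ± 0.35, the asparaginyl protease Lgmn by 1.72 ± 0.29, the tapasin relative Tapbpl by 1.12 ± 0.24, and Marchf1, which sends class II molecules for degradation, by 1.89 ± 0.40. The costimulator receptor Cd40 fell by 0.80 ± 0.25 (limma adjusted p = 0.0442). Nlrc5, the class I counterpart of Ciita, named after its value was seen, gave 0.53 ± 0.28 and did not pass. With PTFC against HFD24, 3 of the 25 fell, namely Psme1 (-0.93 ± 0.20), Mr1 (-1.06 ± 0.26) and Ifi30 (-1.32 ± 0.35). Cd86 and Cd40 gave -1.27 ± 0.36 and 0.90 ± 0.25 without passing (limma adjusted p = 0.0541 and 0.0544).

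Of 18 genes of the interferon gamma axis, 9 rose and 0 fell in HFD24 against ND, with a median of 0.72. The chemokine Cxcl9 read 14.47, 13.84 and 13.47 in HFD24 and 8.48, 9.64 and 9.37 in ND, a rise of 4.76 ± 0.78. Gbp2 and Gbp3, guanylate-binding proteins, rose by 3.24 ± 0.57 and 2.94 ± 0.54, the factor Irf8 by 2.72 ± 0.43 and the receptor chain Ifngr1 by 1.01 ± 0.23. The cytokine itself did not pass: Ifng, named after its value was seen, read 7.30, 7.01 and 6.89 in HFD24 and 7.24, 7.30 and 6.72 in ND, at -0.02 ± 0.19. With PTFC against HFD24, Ifngr1 fell by 0.84 ± 0.23 and the kinase Jak2 by 0.62 ± 0.16, while Irf1, a factor that interferon gamma induces, rose by 1.23 ± 0.31 (limma adjusted p = 0.0373). Cd274 and Irgm1 gave -1.34 ± 0.37 and -0.97 ± 0.29 and did not pass.

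Markers of the cells that carry class II moved alongside. In HFD24 against ND all 10 monocyte and macrophage markers rose, among them Cx3cr1 (3.10 ± 0.44), Cd68 (2.96 ± 0.45) and Tyrobp (3.41 ± 0.53), and their summed intensity was 38810 to 58392 in HFD24 and 5978 to 10466 in ND. All 9 Kupffer cell markers rose, with Folr2 at 1.60 and C1qc at 2.72, and a sum of 147818 to 235019 in HFD24 and 23080 to 56984 in ND. Dendritic cell markers rose in 9 of 11 cases, with Batf3 at 2.32, Itgax at 1.76 and Flt3 at 1.84, at a sum of 6041 to 7464 in HFD24 and 2085 to 3421 in ND. The 3 sums of HFD24 thus lay above those of ND in each of these lists. Among 12 markers of T and NK cells 4 rose, with Nkg7 at 2.30, Cd5 at 2.18 and Gzma at 1.75, and endothelial markers in 4 of 6, with Lyve1 at 3.03.

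B cell markers were mixed. Of 9 measured, 2 rose and 3 fell, with Cr2 at 0.85, Fcer2a at -0.81 and Pax5 at -0.63, and their sums of 8219 to 10568 in HFD24 and 8969 to 10080 in ND overlapped. With PTFC against HFD24 Fcer2a and Cd79a rose (0.94 and 1.04) and Ms4a1 fell (-1.08). None of 5 plasma cell markers passed in either comparison. Hepatocyte markers fell in 1 of 8 cases (Tat, -0.87), their sum being 1808050 to 1903650 in HFD24 and 1932610 to 1973220 in ND, and cholangiocyte markers fell in 1 of 4 (Epcam, -0.60). With PTFC against HFD24, 2 of 10 monocyte and macrophage markers fell (Cd14, -1.43, and Cx3cr1, -1.75), as did 3 of 11 dendritic cell markers (Flt3, -1.51, Ccr7, -1.20, and Itgax, -1.31), 0 of 9 Kupffer cell markers and 1 of 12 T and NK cell markers (Cd5, -1.87). The macrophage sum was 21190 to 31482 in PTFC and 38810 to 58392 in HFD24, and the dendritic cell sum 2576 to 3463 in PTFC and 6041 to 7464 in HFD24. The Kupffer cell sum was 95253 to 113715 in PTFC and 147818 to 235019 in HFD24, and the T and NK cell sum 5398 to 6099 in PTFC and 8012 to 8967 in HFD24. None of these 4 sums overlapped between the groups. The hepatocyte sum went the other way, at 1967350 to 2068700 in PTFC, above all HFD24 arrays. B cell, plasma cell, endothelial and cholangiocyte sums overlapped between PTFC and HFD24, the plasma cell sum being mainly that of Xbp1. Which cells carried the MHC transcripts was not tested.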

How the data were processed

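Liver RNA was labelled with Cy5, per the labels' protocols, and the authors deposited linear intensity values of 26423 probes on each of 12 arrays. Background subtraction, scaling and probe choice by the authors are not given in the sources used here. The platform's gene table named 21876 probes, standing for 19084 genes. Array medians lay between 249 and 408, and the number of arrays limits the precision. Of all values 291 were below 0 and were set to 0. Log2 of intensity plus 1 was quantile normalized over all probes, and each gene was read from its brightest probe by mean over all arrays. All fold values come from these log2 differences.

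Group means were fitted with limma 3.58.1 in R 4.3.3 (eBayes with a trend, all 12 arrays sharing one spread), and a gene passed at a two-sided Benjamini-Hochberg adjusted p under 0.05 over all genes. The script was tested on simulated data. An exact permutation test of 3 against 3 arrays cannot go below 0.1 and was not used for calls. The genes, gene lists and marker lists were chosen with earlier results of these data known. Named were every class II and class I processing gene, the other H2 genes that passed anywhere or were among the 5 brightest, up to 5 genes of each further list and up to 3 of each marker list with the smallest p in HFD24 against ND or PTFC against HFD24. The text marks the few names outside this rule, apart from H2-Q1 and H2-Q5, named only as lacking a promoter window. Alternatives were median centring, the deposited scale, a pseudocount of 32, leaving out the dimmest 25% of genes, the second brightest probe, the replicate number as a block, no trend, the scaling step as a covariate, and each array left out.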

Additional observations from a re-analysis of the deposited data

How the results depend on the processing

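With each array left out in turn, the calls among the 36 genes ran from 13 to 20 for HFD24 against ND, 0 to 17 for PTFC against HFD24, 7 to 19 for HFD16 against ND, 0 to 0 for HFD24 against HFD16 and 0 to 5 for PTFC against ND, and over all genes from 1734 to 4939, 11 to 1973, 1339 to 4516, 3 to 10 and 58 to 658 in the same order of comparisons. Except for HFD24 against HFD16, the highest counts came without the first HFD16 array or the third ND array. With the scaling step as a covariate 382 genes and 0 of the 36 passed for HFD24 against ND, 101 and 0 for HFD16 against ND, 25 and 0 for PTFC against ND, 12 genes for HFD24 against HFD16, and 9 of the 36 for PTFC against HFD24. With median centring 10 of the 36 passed for PTFC against HFD24, 229 genes and 0 of the 36 for PTFC against ND, and 4 genes for HFD24 against HFD16, where the deposited scale and the filter on dim genes left 3 each. PTFC against ND had 0 of the 36 without a trend and 2 with the second brightest probe. The causes were not tested. After each group's mean was subtracted, same-numbered arrays of different groups correlated between -0.29 and 0.17. Arrays of other numbers correlated between -0.19 and 0.26, so no pairing by number was seen. With the replicate block 1 of the 36 genes and 337 of all passed for PTFC against HFD24, 19 and 2830 for HFD24 against ND, and 4 genes for HFD24 against HFD16.

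The direction turned for H2-Eb2 with the second probe (1.72 in HFD24 and 1.55 in HFD16 against ND) and with the scaling step (0.18 and 0.41), and for H2-Oa in HFD16 against ND with the step (-0.010). The second H2-Eb2 probe also turned it in PTFC against HFD24 (-1.43), PTFC against ND (0.29) and HFD24 against HFD16 (0.17). On the deposited scale, where the median of all genes was -0.23 in place of -0.06 in HFD24 against ND and 0.24 in place of 0.01 in PTFC against HFD24, higher genes made up 41.3% of the calls in place of 54.6% and 90.5% in place of 49.3%, and for HFD16 and PTFC against ND 34.4% in place of 55.3% and 68.7% in place of 44.7%. For HFD24 against HFD16 they made up 66.7% in place of 42.9%, and with median centring 0%. With median centring they made up 37.3% for PTFC against HFD24 and 32.8% for PTFC against ND. The class I-like median for PTFC against HFD24 was 0.30 on the deposited scale, against -0.16, and that for HFD24 against ND -0.26 against 0.06, while the class II median kept its sign, between 1.77 and 2.87 for HFD24 against ND and between -1.93 and -1.40 for PTFC against HFD24. With 3 arrays a group and 8 of the 36 genes dim, small differences could not be detected.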

Other observations

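Xcr1, the chemokine receptor of cross-presenting dendritic cells, stood apart on a single array. It read 13.48 on the first HFD16 array, against 8.03 and 6.99 on the other two, 5.40 to 5.63 in PTFC livers, 6.26 to 7.27 in HFD24 livers and 5.51 to 5.85 in ND livers. The same array had the lowest class II median of its group. The sum of the 11 dendritic cell markers was therefore 14208 on that array, against 7654 and 5822 on the other two HFD16 arrays, while the macrophage sum was lowest on it. This was seen after the values were known and was not tested.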
